A study of Homo sapiens with 8 samples.

Results

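A set of 730 branch site clusters was examined in which cells expressing SF3B1 K700E had their top-ranked branch point farther from the nearer cluster end than cells expressing the wild-type protein. A cluster is a stretch of the genome covered by reads of U2 snRNP-protected RNA, and each cluster carries predicted branch points ranked from 1 (top) to 3. Members were listed in all 4 tables of the series with a single branch point of rank 1 in each. Both K700E tables had the same top branch point, both wild-type tables had another, and the K700E position was shifted away from the end on whose side of the midpoint the mean of the 4 tops lay. Of 122826 distinct clusters, 55666 were listed in all 4 tables and 50765 of these could be tested, because 4901 had tied tops in at least 1 table. The top differed by genotype in 2615 of the tested clusters, or 5.15%. Of these 730 moved away from the nearer end, 1.44% of the clusters tested, 1875 moved toward it, 3.69%, and 10 had no nearer end. When the tables were paired by immunoprecipitation instead, SF3A2 lay farther from the end in 0.701% and Flag in 0.597% of clusters, and the crossed pairings gave 0.512% and 0.5%. The members were chosen by the ranks of the branch points, so position and shift are given as descriptions and were not tested.

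The cells were K562, an erythroleukemia line, engineered to carry SF3B1 with a 3x-Flag tag, with the wild-type sequence or with the K700E substitution. Nuclear extracts of both genotypes were digested with nucleases, and U2 complexes were isolated by SF3A2 antibody in 3 libraries per genotype or by anti-Flag antibody in 1 library per genotype. The SF3A2 antibody binds U2 complexes whether or not they hold the tagged SF3B1. Each of the 4 combinations was represented by 1 table of 69448 to 116273 clusters, so no value has a replicate error, and bracketed ranges are 95% Wilson intervals that cover counting error over clusters only. The tables give positions on hg19 and ranks, without read numbers, strand or gene, so read depth per cluster is unknown.

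The branch point is the intron nucleotide, usually an adenosine, whose 2′ hydroxyl attacks the 5′ splice site in the first step of splicing. U2 snRNA pairs with the sequence around it and leaves the branch nucleotide bulged, while the SF3A and SF3B proteins hold the duplex and contact the intron upstream. SF3B1 is the SF3B subunit that closes around this duplex, and K700E, in its HEAT repeats, is a recurrent substitution in myelodysplastic syndromes and other myeloid neoplasms. Mutant SF3B1 is known for the use of cryptic 3′ splice sites through alternative branch points.

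In the members, the K700E branch point lay deeper in the cluster than that of unswitched clusters, and the wild-type branch point lay somewhat closer to the end. The wild-type top was 11 nt from the nearer end at the median, with quartiles of 10 and 13 nt and a range of 0 to 20 nt. The K700E top of the same clusters was 16 nt from that end at the median, with quartiles of 14 and 18 nt and a range of 5 to 54 nt. In the 36379 clusters with an identical top in all 4 tables, called unswitched here, the median was 12 nt with quartiles of 11 and 13 nt. The most frequent wild-type distance in the members was 12 nt, in 140 clusters, and the most frequent K700E distance was 15 nt, in 95 clusters. A distance of 14 nt or more was found for 76.8% of the K700E tops (73.7 to 79.8%) and 13.2% of the wild-type tops (10.9 to 15.8%), against 14.3% in unswitched clusters (13.9 to 14.6%). Distances of 10 to 13 nt were found for 65.2% of the members' wild-type tops (61.7 to 68.6%) and 78.2% of unswitched clusters (77.7 to 78.6%), and distances of 9 nt or less for 21.6% (18.8 to 24.8%) and 7.57% (7.30 to 7.84%). The K700E top passed the midpoint of the cluster in 106 members and lay on it in 38, while the wild-type top did neither in any of the 730, as the rule requires.

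**Figure D1:**
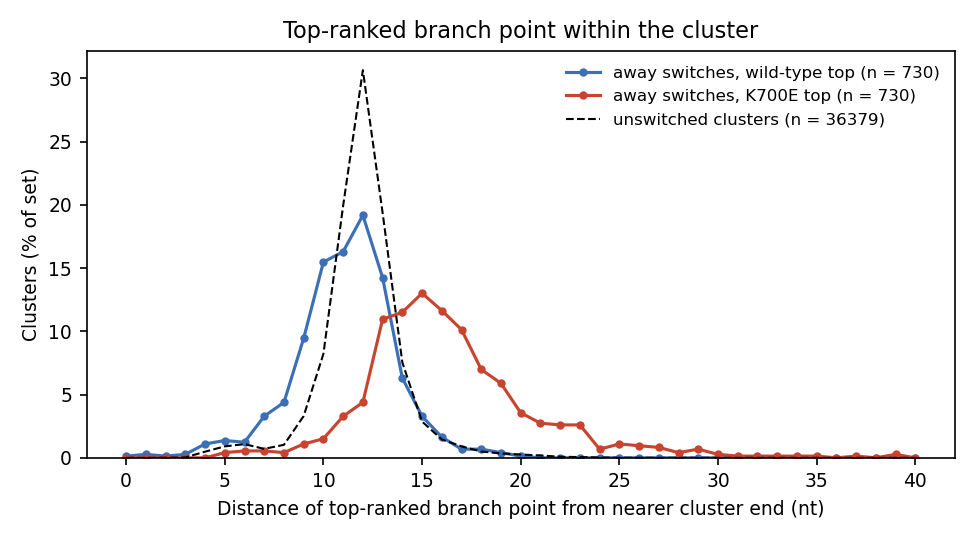
Distance of the top-ranked branch point from the nearer cluster end (nt, horizontal axis) against the share of clusters (%, vertical axis) for the 730 away switches in wild type (blue) and K700E (red) and for 36379 unswitched clusters (dashed). The wild-type curve peaks at 12 nt with the unswitched clusters, the K700E curve peaks at 15 nt, and 1 K700E top at 54 nt lies beyond the axis.

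The switches toward the end made a different exchange. Their wild-type top was 13 nt from the end at the median and their K700E top 10 nt. Among them 44.2% of K700E tops lay within 9 nt of the end (41.9 to 46.4%), compared with 3.01% in the away switches (2.00 to 4.52%). In the away switches it was the wild-type top that often lay so close, in 21.6% (18.8 to 24.8%), compared with 5.97% in the switches toward the end (4.99 to 7.14%). These differences follow from the way both sets were defined.

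Shifts away from the end were mostly short but had a long tail. A shift of 4 nt was the most frequent, with 208 members or 28.5% (25.3 to 31.9%). Shifts of 2 nt and 3 nt followed with 104 and 88 members, then 5 nt with 69 and 6 nt with 57, whereas 1 nt was found in 37. Shifts of 1 to 4 nt made up 59.9% of the away switches (56.3 to 63.4%) and 86.0% of those toward the end (84.3 to 87.5%). Shifts of 10 nt or more made up 12.3% (10.1 to 14.9%) and 2.88% (2.21 to 3.74%). The wild-type distance hardly differed along this range. Its median was 12 nt for shifts of 1 nt, 11 nt for shifts of 4 nt and 10 nt for shifts of 10 to 38 nt, while the K700E median went from 13 to 15 to 23 nt. These sizes hold with the end set by all 4 tops. With the end set by the K700E tops, 586 members remained and 33.8% had a shift of 4 nt (30.1 to 37.7%). The 106 members with a K700E top past the midpoint then counted as toward switches. The long tail therefore depends on how the end is set.

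**Figure D2:**
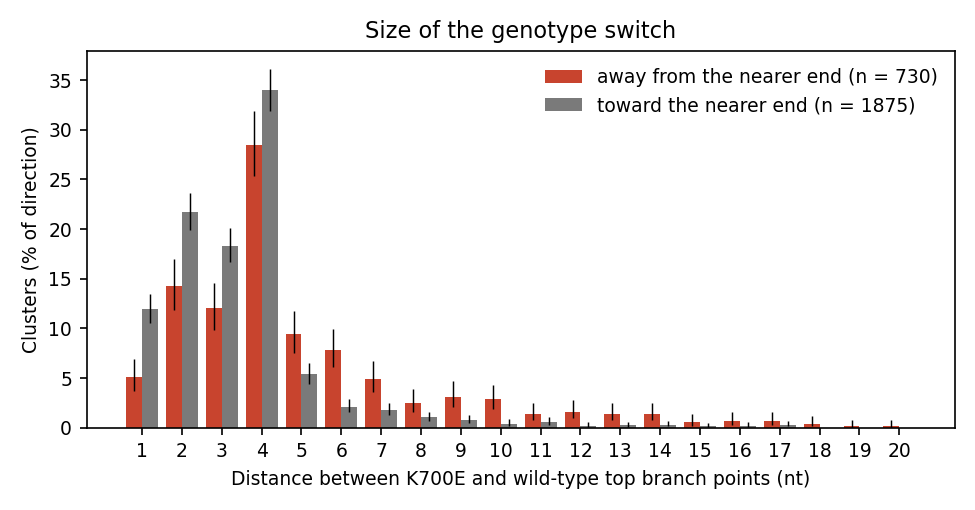
Distance between the K700E and wild-type top branch points (nt) against the share of clusters of each direction (%), with 95% Wilson intervals as bars, for 730 away switches (red) and 1875 switches toward the end (grey). Both directions peak at 4 nt, and with the end set by all 4 tops the away switches have the larger share of long shifts. Beyond the axis lie 8 away switches over 20 nt and also switches toward the end of 21 to 36 nt.

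Long shifts were found in long clusters. Members spanned 36 nt at the median (quartiles 34 and 39 nt), against 34 nt for unswitched clusters (32 and 36 nt) and 33 nt for switches toward the end (32 and 36 nt). Clusters over 38 nt were 30.7% of the away switches (27.4 to 34.1%), 9.49% of those toward the end (8.25 to 10.9%) and 6.04% of the unswitched clusters (5.80 to 6.29%). The median length was 34 nt for away shifts of 1 nt, 35 nt for 4 nt, 39 nt for 7 to 9 nt and 44 nt for 10 nt or more. Clusters with long shifts toward the end were long as well, at 42.5 nt for 10 nt or more. The rule uses the cluster midpoint and the distance between branch points limits how short a cluster can be, so length was not tested.

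The 10 members with the largest shifts, 19 to 38 nt, spanned 48 to 75 nt, and 7 of them carried the 3′ splice site mark in the cluster identifier. In all 10 the K700E top lay past the midpoint, so they would count as toward switches if the K700E top set the end. Neighbouring clusters gave a direction only for the member on chromosome 1 at 230805038 to 230805090. On chromosome 1 at 45479181 to 45479256, a marked cluster, both K700E tables ranked 45479202 first, and SF3A2 and Flag wild type ranked 45479240 first. Each of these positions was listed at rank 2 for the other genotype in both immunoprecipitations, so both were seen in all 4 tables and only their order differed. The same held for the unmarked cluster on chromosome 9 at 136031469 to 136031528, where K700E had 136031506 and wild type 136031479.

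Other large shifts were less evenly listed. On chromosome 15 at 57212020 to 57212079 the K700E top was 57212040 and the wild-type top 57212069, and the Flag wild-type table did not list the K700E position. On chromosome 7 at 151836879 to 151836931 only 2 branch points were listed over the 4 tables, 151836909 as the top in K700E and 151836888 as the top in wild type. The K700E position was in neither wild-type table, and the wild-type position was at rank 2 in SF3A2 K700E alone. On chromosome 5 at 149114128 to 149114179 neither top, 149114147 in K700E or 149114168 in wild type, was listed for the other genotype, and 7 distinct branch points were listed in all. Thus large shifts included both reordered pairs and positions listed for 1 genotype.

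Shifts of 4 nt are illustrated by the first such member on each autosome. There were 21, none on chromosome 13, and 18 of them were marked. Their wild-type top lay 7 to 14 nt from the nearer end and their K700E top 11 to 18 nt. The nearer end was the start in file coordinates for 14 of them. In 9 of the 21 each top was at rank 2 in both tables of the other genotype. One was the marked cluster on chromosome 2 at 10263467 to 10263501, where K700E had 10263484 and wild type 10263488.

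The marked cluster on chromosome 16 at 18856981 to 18857019 held only the exchanged pair, 18856996 (K700E) and 18856992 (wild type), in each of the 4 tables. The marked cluster on chromosome 12 at 30802181 to 30802217 had its K700E top at 30802195 and its wild-type top at 30802191, each at rank 2 for the other genotype, with a further branch point in SF3A2 K700E. In the unmarked cluster on chromosome 15 at 42035190 to 42035219, by contrast, 42035206 was the only branch point in Flag K700E and 42035210 the only one in both wild-type tables. At 680239 to 680274 on chromosome 17, a marked cluster, the K700E top 680252 was at rank 2 in both wild-type tables, whereas the wild-type top 680248 was in neither K700E table.

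The lower ranks show that most switches were a change of order between branch points listed for both genotypes. The K700E top was listed at a lower rank in at least 1 wild-type table in 600 of the 730 members, 82.2% (79.3 to 84.8%). The wild-type top was listed in at least 1 K700E table in 688, 94.2% (92.3 to 95.7%). Both positions were present in all 4 tables in 368 members, 50.4% (46.8 to 54.0%), and in 260 of these each top stood at rank 2 in both tables of the other genotype. Neither position was listed for the other genotype in 21 members, 2.88% (1.89 to 4.36%).

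By table, the K700E top was at rank 2 in SF3A2 wild type in 500 members, at rank 3 in 64 and not listed in 166. In Flag wild type these numbers were 408, 61 and 261. The wild-type top was at rank 2 in SF3A2 K700E in 584 members, at rank 3 in 89 and not listed in 57, and in Flag K700E in 447, 78 and 205. The other genotype's top was therefore listed most often in the SF3A2 K700E table, which is also the table with the most branch points, 253912 against 124989 in Flag wild type. These 2 tables also differ in antibody and in the number of libraries, 3 against 1. Whether the difference comes from table size, genotype, antibody or number of libraries cannot be told apart.

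**Figure D3:**
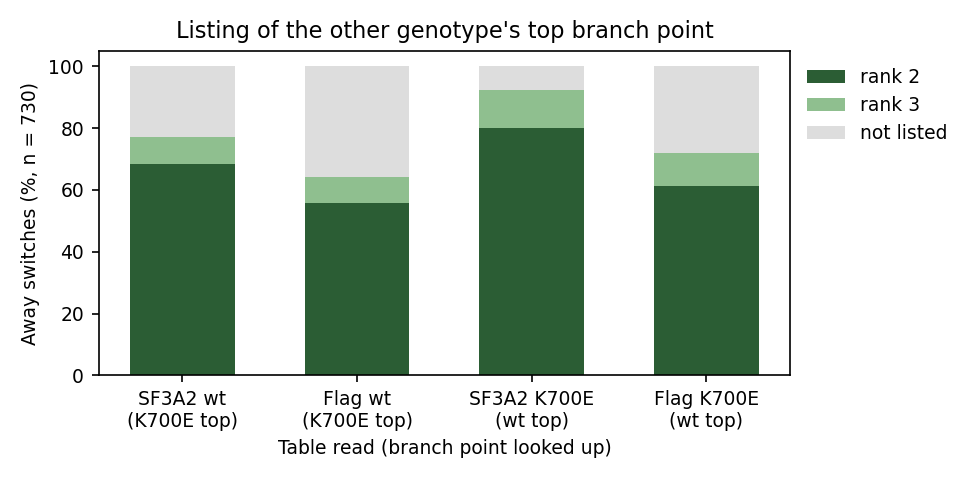
Share of the 730 away switches (%) by how each table listed the top branch point of the other genotype, at rank 2 (dark green), at rank 3 (light green) or not at all (grey). The unlisted part is smallest in SF3A2 K700E, 57 clusters, and largest in Flag wild type, 261 clusters.

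Longer shifts more often led to a branch point that wild type did not list. The K700E top was missing from SF3A2 wild type in 31 of the 208 members with a shift of 4 nt, 14.9% (10.7 to 20.4%), and in 33 of the 90 with 10 nt or more, 36.7% (27.4 to 47.0%). From Flag wild type it was missing in 29.3% (23.6 to 35.8%) and 50% (39.9 to 60.1%). For the wild-type top the intervals of these classes overlapped, at 6.25% (3.69 to 10.4%) and 10% (5.35 to 17.9%) in SF3A2 K700E. At a shift of 1 nt the K700E top was missing from SF3A2 wild type in 9 of 37 members, 24.3% (13.4 to 40.1%), an interval that overlapped both. Switches toward the end had the same order, with the K700E top missing from SF3A2 wild type in 20.9% at 4 nt and 40.7% at 10 nt or more, so this was not particular to the away switches.

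Compared with switches toward the end, the away switches kept both positions in all 4 tables more often. The shares were 50.4% and 42.6%, a difference of 7.80 percentage points (3.54 to 12.0, Newcombe interval over clusters). The K700E top was listed for wild type in 82.2% against 77.9%, a difference of 4.27 points (0.813 to 7.52), and the wild-type top for K700E in 94.2% against 88.6%, 5.66 points (3.30 to 7.77). The full exchange of ranks 1 and 2 was seen in 35.6% and 32.2%, and here the interval of the difference, -0.611 to 7.51 points, included 0. The difference was not seen at every shift. At 2 to 3 nt the K700E top was missing from SF3A2 wild type in 16.7% of away switches and 26.6% of those toward the end. At 5 to 6 nt these shares were 27.0% and 25.5%. The lower ranks come from the tables that chose the members, so the intervals given here are descriptive.

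Away switches also held more branch points. The mean number listed per cluster was 2.92 in SF3A2 K700E (SD over clusters 0.424), 2.49 in SF3A2 wild type, 2.36 in Flag K700E and 2.28 in Flag wild type. Switches toward the end had 2.79, 2.37, 2.21 and 2.12, and unswitched clusters 2.66, 2.09, 1.93 and 1.89, lower than the members in each of the 4 tables. A switch needs at least 2 branch points over the tables, whereas an unswitched cluster can hold a single one. Members were also longer than both other sets, so these numbers are descriptive. Only the exchanged pair was listed over all tables in 61 members, 8.36% (6.56 to 10.6%), against 15.9% of the switches toward the end (14.3 to 17.6%). Over the 730 members 302 had 3 distinct branch points, 250 had 4, 90 had 5, 25 had 6 and 2 had 7.

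These further branch points numbered 1182 in the members. Of them 501 lay closer to the nearer end than both tops, 413 farther than both and 268 between them. The share between was 22.7% (20.4 to 25.1%), against 10.8% of the 2520 in switches toward the end (9.60 to 12.0%), whose tops were spaced more closely. Of the 1182, 104 were listed in both K700E tables only, 8.80% (7.31 to 10.5%). Another 72 were in both wild-type tables only, 6.09% (4.86 to 7.60%). In switches toward the end these shares were 7.14% (6.20 to 8.21%) and 3.93% (3.24 to 4.76%). The larger share for K700E was therefore not particular to the away switches. Table sizes differed in the same order, at 253912 (K700E) and 160905 (wild type) branch points for SF3A2. For Flag they were 134081 and 124989.

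The next comparison asked how often a branch point second in wild type became the top in K700E, depending on its side. Clusters were taken in which the wild-type tables had an identical top and an identical single branch point of rank 2, with the nearer end set by the wild-type top. The second branch point lay on the far side of the top in 7596 clusters and on the nearer-end side in 7279, so both directions were about equally available. It was the top in both K700E tables in 344 of the former, 4.53% (4.08 to 5.02%), and 746 of the latter, 10.2% (9.57 to 11.0%). The far side minus the nearer-end side was -5.72 percentage points (-6.56 to -4.88, Newcombe interval). These clusters came from the 50765 tested, so each was listed with a single top in both K700E tables as well. Within that set the choice used wild-type ranks alone. The outcome is the contrast that defines the members, and no test was made.

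The difference between the sides depended on the spacing. For a second branch point 1 nt away, K700E had it as the top in 2.08% of 674 clusters on the far side (1.24 to 3.46%) and 16.4% of 347 on the nearer-end side (12.9 to 20.7%). At 4 nt the shares were 4.49% (3.77 to 5.34%) and 11.6% (10.5 to 12.9%). At 5 to 6 nt they were 5.47% (4.26 to 6.99%) and 3.25% (2.40 to 4.40%), and at 7 nt or more 9.71% of 649 (7.66 to 12.2%) and 3.57% of 532 (2.30 to 5.51%). With the nearer end set by the wild-type top, the far side was thus the less frequent direction up to 4 nt. It was the more frequent one at 7 nt or more. A switch across the midpoint counts as far-side whichever genotype sets the end, so the order at long spacings depends on that choice.

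**Figure D4:**
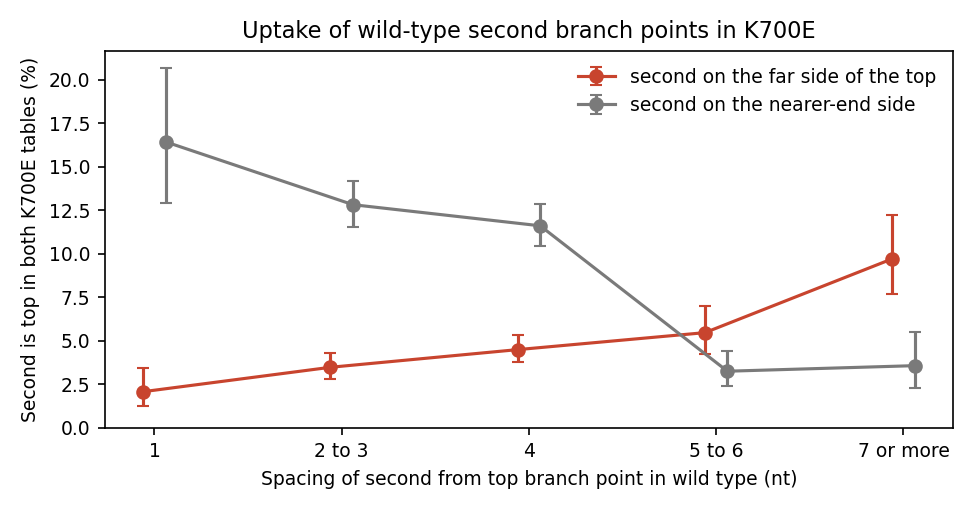
Spacing of the second from the top branch point in wild type (nt, in bins) against the share of clusters in which it was top in both K700E tables (%), with 95% Wilson intervals, for second branch points on the far side (red, 7596 clusters) and the nearer-end side (grey, 7279 clusters). The nearer end is set by the wild-type top. The far side goes from 2.08% at 1 nt to 9.71% at 7 nt or more, and the nearer-end side from 16.4% to 3.57%.

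Starting from K700E gave the reverse picture. Where both K700E tables shared a top and a single second branch point, the second was the top of both wild-type tables in 10.2% of 10045 clusters when it lay on the far side (9.64 to 10.8%) and in 3.44% of 9280 when it lay on the nearer-end side (3.09 to 3.83%). The second of these groups is the arrangement of an away switch, and it was the rarer one at each spacing, from 4.61% at 1 nt to 2.33% at 5 to 6 nt. At 7 nt or more it was 3.21%, against 7.67% on the far side. The more frequent direction at long spacings therefore depended on which genotype's top set the end.

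The 2 immunoprecipitations were then used in turn, one to choose clusters and the other to read them. Between the SF3A2 tables alone the K700E top was shifted away from the nearer end in 3026 clusters, 5.96% of those tested, and toward it in 4740, 9.34%. Of the 3026, the Flag tables differed in the same direction in 1006, 33.2% (31.6 to 34.9%), did not differ in 1471 and differed in the opposite direction in 549, 18.1% (16.8 to 19.6%). Of the 4740, the direction was the same in 48.2% (46.8 to 49.6%) and opposite in 11.6% (10.7 to 12.6%). Among all clusters tested the Flag tables differed away from the end in 8.15% and toward it in 12.1%. Choosing by Flag and reading in SF3A2 gave 24.2% in the same and 13.9% in the opposite direction for 4137 away shifts, and 37.2% and 8.61% for 6147 shifts toward the end. The share in the same direction was lower for away shifts in both orders, and so were the shares over all clusters tested, so lower sharing is not a result about away shifts.

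The 3′ splice site mark, which the rule did not use, was as frequent in the members as elsewhere within counting error. It was carried by 500 of the 730, 68.5% (65.0 to 71.8%), by 70.7% of the switches toward the end (68.6 to 72.7%) and by 69.9% of the unswitched clusters (69.5 to 70.4%). The difference from switches toward the end was -2.17 percentage points (-6.18 to 1.71) and from unswitched clusters -1.43 points (-4.92 to 1.87). The sets were not matched for length, in which they differ. In members of 30 to 38 nt the mark was on 73.1% (69 to 76.9%), and the share at this length was not computed for the other sets. Within the members the mark was on 75% of those with a shift of 4 nt (68.7 to 80.4%) and 54.1% of the 37 with a shift of 1 nt (38.4 to 69.0%), and these intervals overlap only slightly. In switches toward the end the same classes had 73.8% (70.2 to 77.0%) and 56.7% (50.1 to 63.0%).

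The nearer end was a property shared with neighbouring clusters. Unswitched clusters of 30 to 38 nt with a top at least 3 nt from the midpoint served as neighbours, leaving out any within 100 nt. Among those adjacent and at most 2000 nt apart, 98.9% of 7442 pairs had the same nearer end in file coordinates (98.7 to 99.1%), and at up to 50000 nt 92.3% of 25424 (92.0 to 92.7%). Of the 730 members 464 had at least 3 such neighbours within 20 kb. In 114 of them the neighbours differed in their nearer end and gave no direction. In the other 350 all neighbours had the same nearer end, and the member's own nearer end was the same in 344, 98.3% (96.3 to 99.2%). For switches toward the end this was so in 841 of 855, 98.4% (97.3 to 99.0%). For these 350 members the direction was therefore the same when the end was taken from clusters with no switch, except for 6, and the other 380 could not be checked in this way. Which end is upstream in the RNA was not analysed here, as the tables give no strand.

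The 6 exceptions included the unmarked cluster on chromosome 5 at 137895784 to 137895825, one of those closest to the limit of the rule, where the mean top lay 0.5 nt from the midpoint. Its tops were 137895804 in K700E and 137895806 in wild type. Just inside the limit were also chromosome 22, 21159461 to 21159495, where the K700E top was 21159481 and the wild-type top 21159474, and chromosome X, 117712445 to 117712482, with 117712461 and 117712467. Just outside it, with the mean on the midpoint and no nearer end, were clusters such as chromosome 1, 35853319 to 35853359, where the K700E top was 35853341 and the wild-type top 35853337. Only 23 members had their mean top under 2 nt from the midpoint, 3.15% (2.11 to 4.68%), and 98 under 3 nt, 13.4% (11.1 to 16.1%).

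The nearer end was the cluster start in file coordinates in 364 members and the cluster end in 366. This even split, 49.9% at the start (46.2 to 53.5%), was close to that of unswitched clusters, 48.5% (48.0 to 49.0%). Switches toward the end were less even, with 57.0% at the start (54.7 to 59.2%), and the members minus these gave -7.10 percentage points (-11.3 to -2.83). The mean wild-type distance in the members was 10.5 nt when the nearer end was the start and 11.7 nt when it was the end, and 11.5 and 12.4 nt in unswitched clusters. File coordinates therefore place branch points about 1 nt farther from the end than from the start, and counts with the end taken 1 nt lower were made as an alternative.

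Members were found on all 22 autosomes and on X. Their share of tested clusters was 1.88% on chromosome 1 (1.56 to 2.27%, 109 of 5785), whose interval lay above the genome-wide 1.44%. The lowest shares were 0.962% on chromosome 16 (0.636 to 1.45%, 22 of 2288), 1.04% on chromosomes 11 and 22 and 1.08% on chromosome 3 (0.756 to 1.53%). For the 23 chromosomes with members, chromosome 1 was the only one whose interval did not include the genome-wide share, and intervals were not adjusted for the number of chromosomes. The part of oriented switches that went away from the end ranged from 19.7% on chromosome 22 (11.6 to 31.3%) to 34.7% on chromosome 4 (26.1 to 44.3%).

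**Figure D5:**
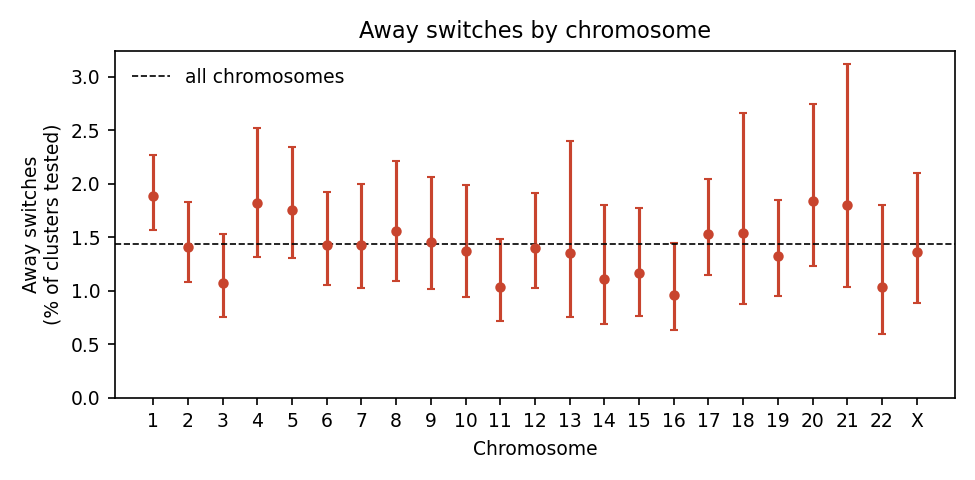
Away switches as a share of the clusters tested (%) on each chromosome with at least 100 tested clusters, with 95% Wilson intervals, and the share over all chromosomes (dashed). Chromosome 1 at 1.88% has an interval above the line, and the other intervals reach it.

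Of 9079 intervals of 100 kb with a tested cluster, 675 held a member, and 627 of these held 1, 42 held 2, 5 held 3 and 1 held 4. Members were only 1.44% of tested clusters, and no matching count was made for other clusters. This spread is therefore not a result about the members. A switch toward the end was present in 201 of the 675 intervals. The share over all 9079 intervals was not computed, so this count is not a result about the members. Another cluster lay within 100 nt of 4.38% of the members (3.12 to 6.12%), against 4.17% of unswitched clusters (3.97 to 4.38%) and 3.73% of switches toward the end (2.97 to 4.69%). Close pairs of clusters were therefore not more frequent around the members within counting error.

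The interval with 4 members lay on chromosome 17 from 26.9 to 27 Mb and held 50 tested clusters, 3 of them switched toward the end. It was chosen as the highest after the counts were seen. Its members were at 26907154 to 26907194 and 26910675 to 26910722, both unmarked, and at 26946006 to 26946041 and 26969110 to 26969149, both marked. Their K700E tops were at 26907170, 26910700, 26946019 and 26969124 and their wild-type tops at 26907164, 26910685, 26946015 and 26969117. The shifts were 6, 15, 4 and 7 nt. The nearer end of all 4 was the start, as for their neighbours, so by the rule all shifts ran in the same direction in file coordinates. The 5 intervals with 3 members began at 76.2 Mb of chromosome 1, at 37.4 Mb of chromosome 2 and at 4, 160.4 and 167.4 Mb of chromosome 6. In this order they held 21, 23, 17, 22 and 13 tested clusters.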

How the data were processed

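U2 IP-seq libraries of K562 cells were used as 4 deposited tables, 1 per antibody and genotype, assigned by the name of the workbook sheet, with 3 libraries in each SF3A2 table. Inserts were 24 to 55 nt, per the labels. The submitters' processing notes name cutadapt, STAR 2.7.6a and hg19. The methods of cluster calling, pooling and branch point prediction were not given in the sources used here. For every branch point the authors deposited a score, its rank, and other columns are positions, whose base (0 or 1) is not stated. The control libraries of the design text were not analysed here. In SF3A2 K700E, 1 row without an identifier was left out.

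Tables were joined by cluster identifier in Python 3.11.15 with pandas 2.3.3 and numpy 2.4.6. Length is end minus start. Shares carry Wilson and differences Newcombe intervals. They treat clusters as independent. No p-value was computed because each combination is 1 table. Members and lists were chosen with earlier results of these data known. Named clusters were the 10 largest shifts, the first 4 nt shift on each autosome and the 5 nearest the limit on each side, and a few of these are printed. The planned gene and sequence checks were not run, as no hg19 sequence or annotation was used here. On simulated data of 20000 clusters the classification recovered 169 of 200 away switches of 3 nt, called 0 of 400 toward switches as away and added 7 unswitched clusters. All simulated switches were of 3 nt, and simulated errors were rarer than the disagreement between the deposited tables. These counts are therefore not error rates for the members. Alternatives changed orientation, length, shift, tables and thinning.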

Additional observations from a re-analysis of the deposited data

How the results depend on the processing

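No paired analysis was possible because each genotype and antibody is 1 table without library columns, so single libraries could not be left out either. The 730 away switches became 804 with orientation by wild-type tops, 586 by K700E tops, 632 with a mean at least 3 nt from the midpoint, 693 for shifts of at least 2 nt, 675 with 1 cluster per 100 kb and 734 with the end taken 1 nt lower, 729 of them shared. They fell to 480 in clusters of 30 to 38 nt and rose to 3026 for SF3A2 tables alone and 4137 for Flag tables alone, as fewer clusters or fewer conditions applied. By these last 3 choices the share with a shift of 4 nt was 35.4, 25.9 and 24.7%, and it was 33.8% with orientation by K700E tops. The K700E top was listed for wild type in 89.8, 71.4 and 57.5%, and in 85.3% with orientation by K700E tops. The wild-type top was listed for K700E in 95.6, 87.3 and 59.2%. With 1 antibody only 1 table per genotype could list it. The mark was on 73.1% in clusters of 30 to 38 nt. Taking the side from neighbours, chosen after seeing the data, gave 363 away switches against 350 within 20 kb and 269 against 259 within 5 kb. For wild-type second branch points, the far-side share of 4.53% was 3.91% in clusters of 30 to 38 nt and 3.78% for spacings of 1 to 4 nt, and the nearer-end share of 10.2% was 8.73% in unmarked clusters and 12.5% for these spacings. The far side stayed the lower one in all 6 alternatives, which were added after seeing the data. None of them kept only spacings of 5 nt or more, where the far side had the higher share. None set the end by another top. Depth is unknown, so a branch point that is not listed may be one with few reads.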

Other observations

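Switches toward the nearer end had that end at the cluster start in 57.0% of 1875 clusters, while away switches had it there in 49.9% and unswitched clusters in 48.5%. The tables give no strand, and the cause was not tested.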
